A study of Mus musculus with 6 samples.

Results

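The cytosolic ribosomal protein genes were taken from the gene table by their symbols: Rpl or Rps followed by a number and an optional a, l or x with a further number, together with Rplp0, Rplp1, Rplp2, Rpsa, Rpl7a, Rpl10a and Fau, and without the rows marked -ps. This rule found 88 of the 25067 rows. Of these, 46 encode core proteins of the large subunit, 32 encode core proteins of the small subunit, and 10 are paralogs, meaning genes outside the standard set: Rpl3l, Rpl6l, Rpl7l1, Rpl22l1, Rpl32l, Rpl39l, Rps3a2, Rps3a3, Rps4l and Rps27l. In the GENCODE annotation of GRCm38, 5 of these 10 (Rpl6l, Rpl32l, Rps3a2, Rps3a3 and Rps4l) are processed pseudogenes and the other 5 are protein coding. The rule used the names alone and no measured value. Rack1, which also encodes a protein of the ribosome, carries another name and is described apart from the 88.

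RNA-seq was performed on 6 libraries of colonic organoids, which are epithelial cultures grown from isolated crypts. All 6 shared the genotype Prkcif/fPrkczf/f;Villin-CreERT2 on the C57BL/6 strain, were labelled with a mouse age of 8 weeks, and grew with Noggin, EGF, WNT3A, R-spondin 1 and B27 in Advanced DMEM/F12. Organoids of 3 libraries received 4-OH tamoxifen (4-OHT), which activates CreERT2, and those of the other 3 received the ethanol vehicle, each at passage and for 3 days before RNA was taken. The comparison asks how the transcriptome differs once recombination of Prkci and Prkcz, the genes of the atypical protein kinases C (PKCλ/ι and PKCζ), has been induced. The Villin promoter limits Cre to epithelial cells. The labels call the vehicle libraries wild type although they carry the same floxed alleles and the same Cre. With no 4-OHT group lacking the floxed alleles or Cre, the loss of the kinases, the activity of Cre and 4-OHT itself cannot be told apart. The labels do not say whether the 3 libraries of a group came from separate animals or cultures, so the p-values measure only the spread between these libraries.

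Each cytosolic ribosome joins a small subunit, which reads the mRNA, to a large subunit, which forms the peptide bond, and each protein of the standard set is generally present in a single copy per ribosome, with the paired stalk proteins as the exception. The mRNAs of these proteins are among the most abundant in proliferating epithelium. Most begin with a run of pyrimidines, the 5′ terminal oligopyrimidine (TOP) tract, through which mTORC1 signalling and the protein Larp1 regulate their translation and stability. Free ribosomal proteins can also act outside the ribosome, and Rpl5 and Rpl11 are known to bind Mdm2 and stabilise p53.

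The deposited values were normalized counts, that is, reads per gene divided by a scaling factor of the library. Reads recovered from them came to 15804709 to 26957612 per library. Prkcz was counted at 880, 904 and 954 in the vehicle libraries and 287, 265 and 290 in the 4-OHT libraries (log2 fold change −1.70, SE 0.076, adjusted p = 3.2e-12 by limma). Prkci was counted at 3603, 3526 and 3430 in the vehicle libraries and 2869, 3105 and 3089 in the 4-OHT libraries (log2 fold change −0.22, SE 0.048, adjusted p = 0.00081 by limma). Both targeted genes were lower in every 4-OHT library, Prkci by far less than Prkcz. These counts cover whole genes, so they do not measure the deleted exons alone. The 7 colonic epithelial markers, among them Epcam, Cdh1, Krt8, Krt18, Vil1 and Cdx2, were present throughout, summing to 13224 to 13540 RPM (a read count scaled to the same total in every library) in the vehicle libraries and 16988 to 18084 in the 4-OHT libraries. The 6 Paneth and ileal markers summed to 7.75 to 14.1 RPM in the vehicle libraries and to 9.70, 37.2 and 35.6 in 4-OHT replicates 1, 2 and 3. The 3 plasma cell markers stood at 0 in all vehicle libraries and at 0.0519, 10.4 and 3.52 in 4-OHT replicates 1, 2 and 3, and the 3 smooth muscle markers reached 0.253 at most in the vehicle libraries and 0.259, 2.30 and 4.94 in the 4-OHT replicates. The sums of the other marker lists (leukocyte, fibroblast and vessel) lay between 0 and 1.93 in all libraries. Counts of members without 4-OHT replicates 2 and 3 stand beside the main counts, and the part of these traces in the other results was not tested.

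In the deposited normalization, the ribosomal protein genes as a whole lay close to their vehicle level. Of 85 members whose normalized count averaged 10 or more, 4 rose (Rps27l, Rpl7, Rpl35 and Rpl7l1), 9 fell (among them Rpl36, Rpl8, Rps2, Rps6, Rpl7a, Rpl22, Rpl3 and Rps13) and 72 passed in neither direction (limma adjusted p under 0.05). The members called came to 15.3% of those tested, against 43.6% of the 13210 genes tested in all. This low share depended on the scaling: with total reads 35 members (41.2%) were called against 45.5% of all genes, and with quantile normalization 46 members (54.1%) against 43.1%. Of all genes, 22.7% were called higher and 21% were called lower. The log2 fold changes of the members ran from −0.21 to 0.38 with a median of −0.027, where the median over all genes tested was −0.0054. In bulk libraries, less of these mRNAs per cell and fewer cells rich in them cannot be told apart.

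In the deposited normalization, these small differences had narrow intervals, which measure the spread between libraries. The intervals do not cover the choice of scaling. That choice moved the median of the members from −0.027 to −0.10 with total reads and to −0.12 with quantile normalization. The 95% interval of the log2 fold change lay within 1.2-fold in either direction for 75 of the 85 members (88.2%), against 24.4% of all genes tested. Highly counted genes have narrow intervals in general, so genes of like depth are the nearer comparison. Among genes with a mean of at least 4000, 10 of 71 core ribosomal protein genes were called (14.1%), 1 higher and 9 lower, whereas 66.1% of all 939 genes of that depth were called. The interval lay within 1.2-fold for 69 of those 71 core genes (97.2%) and for 44.7% of the 939. At this depth the core genes called came to 46.5% with total reads, against 68.9% of all genes of that depth, and to 63.4% with quantile normalization, against 69.9%. The core genes formed a narrow peak around 0 beside the broad distribution of the other highly counted genes, which is the pattern the histogram of fold changes shows.

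**Figure D1:**
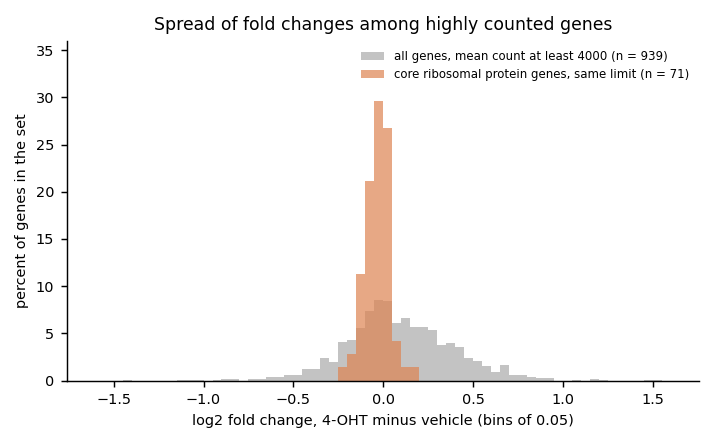
Distribution of the log2 fold change (4-OHT minus vehicle, x axis, bins of 0.05) for genes whose normalized count averaged 4000 or more, as a percent of the genes in each set (y axis). Grey bars hold all 939 such genes, the 71 core ribosomal protein genes included, and orange bars hold those 71, which lie between −0.21 and 0.18.

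The subunits had like counts and medians. Of 45 large-subunit core genes tested, 2 rose and 5 fell in the deposited normalization (15.6% called, against 43.6% of all genes). Their median log2 fold change was −0.027. Of 32 small-subunit core genes, none rose and 4 fell (12.5% called), with a median of −0.029. The large-subunit and small-subunit medians were −0.10 and −0.10 with total reads, and −0.13 and −0.13 with quantile normalization. More members were called under both of these scalings, as given above. The reads on the large-subunit genes stood to those on the small-subunit genes at a ratio of 1.38 to 1.39 in each of the 6 libraries, with means of 1.388 ± 0.004 in vehicle and 1.386 ± 0.005 in 4-OHT (SD, n = 3). Those 2 groups of ratios overlapped.

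**Figure D2:**
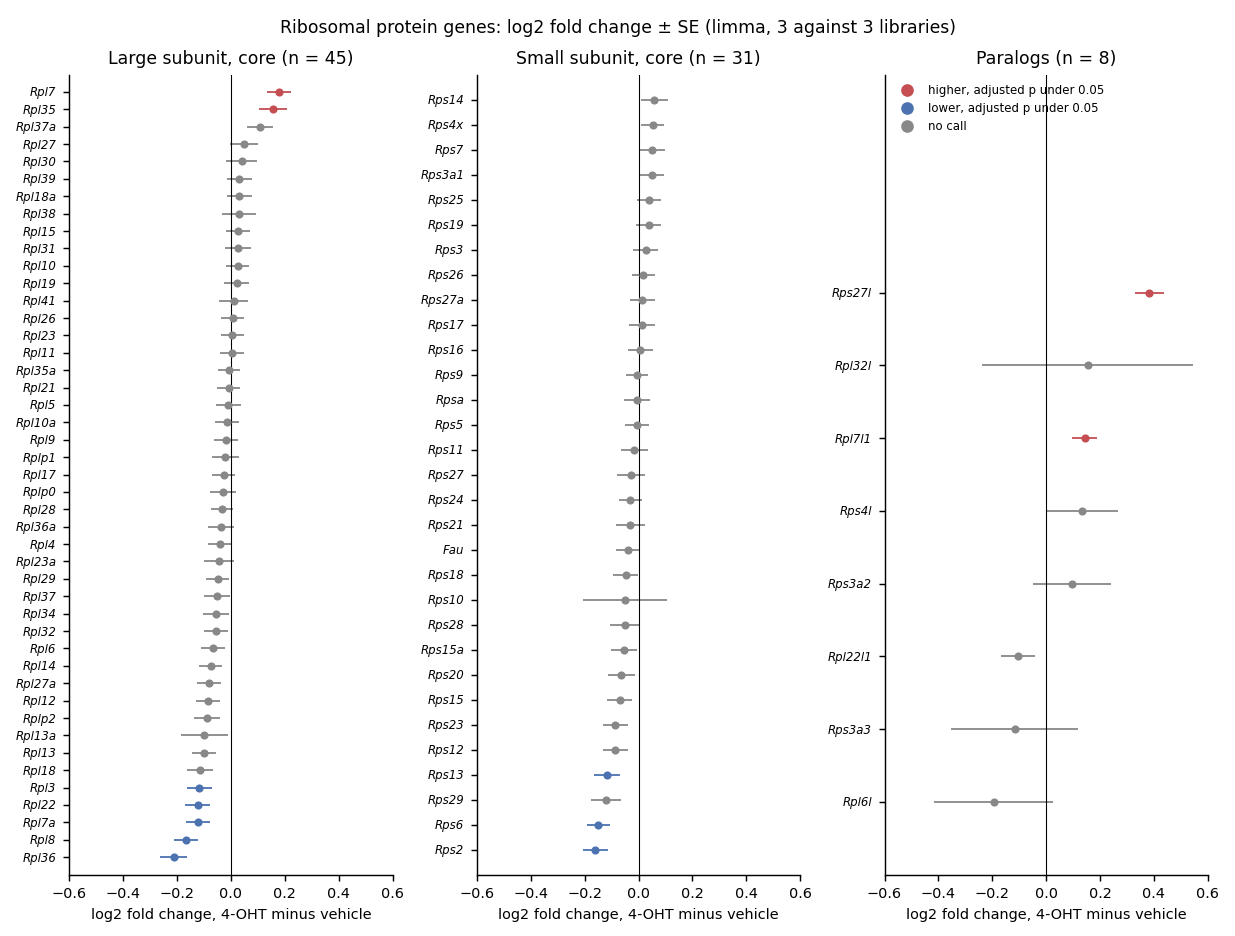
Log2 fold change (4-OHT minus vehicle, x axis) with its standard error for each ribosomal protein gene tested, ordered by value in panels for the 45 large-subunit core genes, the small-subunit core genes (all but 1 of the 32) and the 8 paralogs. Red points passed as higher and blue points as lower, and nearly all core genes lie within 0.2 of the zero line.

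One vehicle library stood apart in these genes. In vehicle replicate 3, all 77 core genes tested lay above their own vehicle mean (which includes this library), by a median of 0.077 on the log2 scale, while the medians were −0.043 and −0.040 in vehicle replicates 1 and 2 and −0.029, 0.013 and −0.043 in 4-OHT replicates 1, 2 and 3. This library also had the fewest reads. Its excess over the other vehicle libraries was larger among core genes with short transcripts: the median was 0.153 over the 25 genes under 600 bases and 0.106 over the 52 longer ones, and across the 77 genes it correlated with log2 transcript length at r = −0.35 (rho = −0.46), a description over genes that share the same libraries.

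Without vehicle replicate 3, 7 members were called higher (Rpl27, Rpl37a and Rpl38 being added to the 4 above), 4 were called lower (Rpl36, Rpl8, Rps2 and Rps6), and the median log2 fold change of the members turned from −0.027 to 0.018. The members called then came to 12.9% of those tested, against 39.1% of all genes. When 4-OHT replicates 2 and 3 were left out together instead, Rpl35 and Rps27l passed as higher and Rpl36 alone as lower. The part of these libraries' other differences in the result was not tested.

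**Figure D3:**
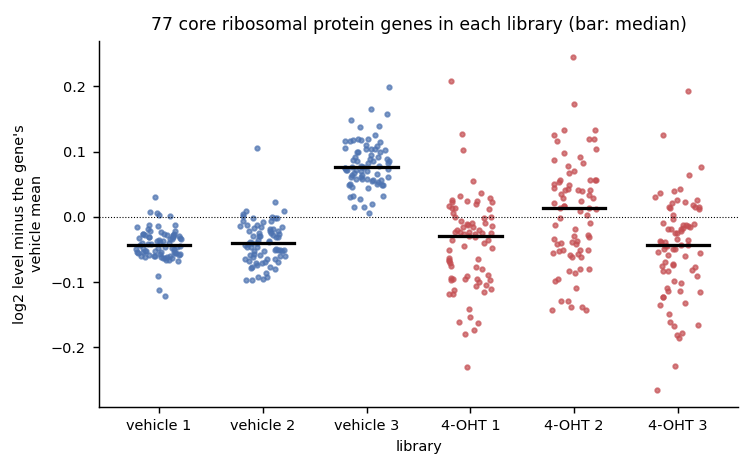
Log2 normalized count of each of the 77 core genes minus the same gene's vehicle mean (y axis) in the 6 libraries (x axis), with 1 point per gene and a bar at the median. All points of vehicle replicate 3 lie above 0, and the 4-OHT points spread more widely around it.

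The share of all reads that fell on the members was lower in every 4-OHT library. It was 5.95%, 5.94% and 6.40% in the vehicle libraries and 5.64%, 5.76% and 5.59% in the 4-OHT libraries, a difference of −0.44 percentage points between means of 6.10 ± 0.26 and 5.66 ± 0.088 (SD, n = 3). Without vehicle replicate 3 the difference was −0.28 points. The large-subunit share went from 3.53% to 3.27% and the small-subunit share from 2.54% to 2.36%, whereas the share of the paralogs together went from 0.0334% to 0.0361%, each without overlap between the groups. Most paralog reads came from few genes. Mean normalized counts in vehicle and 4-OHT were 3014 and 3324 for Rpl7l1, 2008 and 2618 for Rps27l, and 961 and 894 for Rpl22l1. The summed share therefore does not describe the paralogs as a group. Normalized counts summed over the members did overlap, and the summed normalized counts of all genes were 19017300 to 19133400 in vehicle and 19906900 to 20304400 in 4-OHT. Scaling to total reads placed 2 members higher and 33 lower with a median of −0.10 (41.2% called, against 45.5% of all genes). It moved the median of all genes to −0.078 and the part of all calls that were higher from 52.0% to 36.9%. Quantile normalization, which gives every library the same distribution, placed 1 member higher and 45 lower with a median of −0.12. That was 54.1% of the members called, against 43.1% of all genes. The size of the median thus depended on the scaling. In the deposited normalization the median turned above 0 without vehicle replicate 3, whereas the difference in read share stayed below 0. Scaled to the core members themselves, which sets their median near 0 by construction, the members had a median of 0.0011. Meanwhile Rps27l was higher and Rpl36 lower in all 20 alternatives to the fit.

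**Figure D4:**
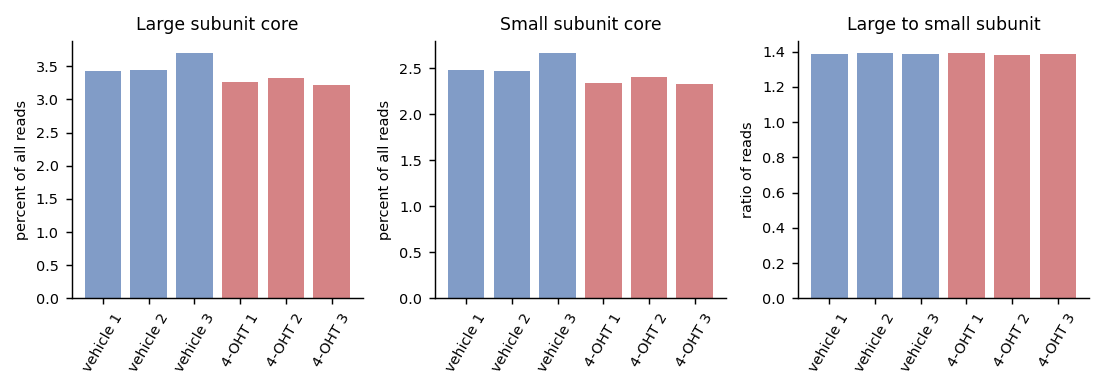
Percent of all reads on the large-subunit core genes (left) and on the small-subunit core genes (middle), and the ratio of the 2 (right), for each of the 6 libraries (x axis; vehicle blue, 4-OHT red). Vehicle replicate 3 has the highest shares, the 4-OHT libraries lie below all vehicle libraries in both, and the ratio stays at 1.38 to 1.39.

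Because TOP tracts are read at the first bases of the mRNA, the 30 bases around annotated starts are shown for members that were called and for a few that were not. The sequences are from RefSeq (GRCm38.p6, a build older than the GRCm39 of the deposited counts), each with 15 bases before the annotated start and 15 from it on. Capitals mark a run of at least 5 C or T, read from a C within 5 bases either side of the start, on the strand of the gene. The base before that C was not checked, so capitals can begin inside a longer run of C and T, as in Rpl7a. A sequence with no capitals held no such run. Rps27l and Rpl22 each have another annotated start that is not shown, and it held no such run in either gene. The genes that rose and matched the RefSeq table of starts are Rps27l, Rpl35 and Rpl7l1, so Rpl7 is not shown.
Rps27l (chr9:66946071-66946100, plus strand): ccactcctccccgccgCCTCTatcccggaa
Rpl35 (chr2:39005117-39005146, minus strand): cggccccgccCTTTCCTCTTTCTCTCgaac
Rpl7l1 (chr17:46782642-46782671, minus strand): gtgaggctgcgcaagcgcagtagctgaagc
The genes that fell and matched that table are Rps2, Rps6, Rpl7a, Rpl22 and Rps13, so Rpl36, Rpl8 and Rpl3 are not shown.
Rps2 (chr17:24720048-24720077, plus strand): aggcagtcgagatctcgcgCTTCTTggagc
Rps6 (chr4:86857353-86857382, minus strand): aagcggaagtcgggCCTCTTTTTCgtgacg
Rpl7a (chr2:26910792-26910821, plus strand): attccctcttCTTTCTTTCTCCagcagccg
Rpl22 (chr4:152325711-152325740, plus strand): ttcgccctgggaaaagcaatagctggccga
Rps13 (chr7:116334176-116334205, minus strand): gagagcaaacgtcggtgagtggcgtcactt
Genes that passed in neither direction follow. Rps27 and Rpl22l1 belong to pairs described below. Fau, Rpl27a and Rpl38 hold long runs or have capitals that begin exactly at the start.
Rps27 (chr3:90213634-90213663, minus strand): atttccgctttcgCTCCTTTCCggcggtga
Rpl22l1 (chr3:28805493-28805522, plus strand): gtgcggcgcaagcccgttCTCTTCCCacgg
Fau (chr19:6057932-6057961, plus strand): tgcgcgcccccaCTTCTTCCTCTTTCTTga
Rpl27a (chr7:109519180-109519209, plus strand): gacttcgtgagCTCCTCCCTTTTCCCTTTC
Rpl38 (chr11:114668565-114668594, plus strand): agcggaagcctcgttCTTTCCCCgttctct

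Of the 88 members, 64 matched the RefSeq table of starts. Of these, 31 (48.4%) held such a run at any annotated start, against 21.2% of all 27025 genes in that table. The stricter form, with the C exactly at the annotated start and at least 4 more C or T after it, was met by 15 members (23.4%) and by 3.01% of all genes. Among core genes in the table, the run was present in 3 of 5 that fell, in the single one that rose and in 24 of 51 (47.1%) that passed in neither direction. The run thus marked members with and without a call. An annotated start can lie bases away from the start used in these organoids, so a missing run says only that the letters were not in this window.

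Rps27l had the largest change of all members, and it is a paralog of Rps27, the small-subunit protein eS27, and a known transcriptional target of p53. Its normalized count was 1968, 1921 and 2136 in the vehicle libraries and 2635, 2730 and 2488 in the 4-OHT libraries. All 4-OHT libraries lay above all vehicle libraries, and the mean went from 2008 ± 113 (SD, n = 3) to 2618 ± 122 (SD, n = 3), giving a log2 fold change of 0.38 (SE 0.054, adjusted p = 8.5e-06 by limma). Rps27 itself was counted at 5416, 5355 and 6134 in the vehicle libraries and 5623, 5470 and 5456 in the 4-OHT libraries, and the groups overlapped (log2 fold change −0.03, SE 0.050, adjusted p = 0.69 by limma; 95% interval −0.13 to 0.08).

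Within this pair the ratio was higher in every 4-OHT library. Rps27l reached 36.3%, 35.9% and 34.8% of the Rps27 count in the vehicle libraries and 46.9%, 49.9% and 45.6% in the 4-OHT libraries. The mean log2 ratio was 0.41 higher in 4-OHT, without overlap, and the exact permutation test gave p = 0.1 (two-sided), the smallest that 3 against 3 libraries allow (adjusted p = 0.4 over the 4 pairs tested). Sequence bears on how well the counts separate the 2 genes: 98.6% of the 50-base windows of the Rps27 transcript also occur in transcripts of 9 other genes in the GENCODE annotation of GRCm38, and 22.4% of those of Rps27l occur in transcripts of 4 other genes. How reads that match several places were counted is not given in the sources used here, so the Rps27 level is the less certain of the pair.

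Rpl7l1, a relative of Rpl7 known for a role in making the large subunit, rose as did Rpl7. Rpl7l1 was counted at 2863, 3031 and 3146 in the vehicle libraries and 3271, 3334 and 3367 in the 4-OHT libraries (log2 fold change 0.14, SE 0.048, adjusted p = 0.02 by limma). Rpl7, uL30 of the large subunit, was counted at 21509, 22207 and 22481 in the vehicle libraries and 23678, 26139 and 25221 in the 4-OHT libraries (log2 fold change 0.18, SE 0.045, adjusted p = 0.003 by limma). In both genes every 4-OHT library lay above every vehicle library, and the log2 ratio of Rpl7l1 to Rpl7 differed by −0.04 between the groups (exact permutation p = 0.5, adjusted p = 0.8). Rpl7l1 stood at 12.8% to 14.0% of the Rpl7 count in all libraries. It was not called without vehicle replicate 1 or 2 or without 4-OHT replicate 3, whereas Rpl7 was called with any single library left out. Rpl7 lost its call under quantile normalization (0.046, limma adjusted p = 0.33) and without 4-OHT replicates 2 and 3 together (0.10, limma adjusted p = 0.22), and Rpl7l1 lost its call in both and with total reads.

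The other paralogs gave no call. Rpl22l1, which can take the place of Rpl22 in the large subunit, was counted at 975, 921 and 985 in the vehicle libraries and 929, 904 and 849 in the 4-OHT libraries (log2 fold change −0.10, SE 0.062, adjusted p = 0.19 by limma), and the groups overlapped. Rps4l, an autosomal relative of the X-linked Rps4x, was counted at 160, 143 and 173 in the vehicle libraries and 153, 174 and 198 in the 4-OHT libraries (log2 fold change 0.13, SE 0.13, adjusted p = 0.43 by limma). The log2 ratio to the core partner differed by 0.02 for Rpl22l1 with Rpl22 (exact permutation p = 0.8) and by 0.08 for Rps4l with Rps4x (exact permutation p = 0.6), both with adjusted p = 0.8. With total reads Rpl22l1 was called lower (−0.18, limma adjusted p = 0.027).

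Rps3a2, Rps3a3, Rpl6l and Rpl32l were low, at 9.33 to 155 normalized counts, and their log2 fold changes of 0.10, −0.12, −0.20 and 0.15 had standard errors of 0.14, 0.24, 0.22 and 0.39. At this depth a change of their size was not detectable. Rpl3l, known from striated muscle, and Rpl39l, known from testis, held 0 to 4 reads per library and were not tested. Over the 8 paralogs tested the median log2 fold change was 0.12, and 2 rose, both among the 3 protein-coding paralogs tested and none among the 5 pseudogenes. That median was −0.0066 without vehicle replicate 1, 0.058 without 4-OHT replicate 2, −0.041 without 4-OHT replicates 2 and 3 together and 0.043 with total reads, so no direction is given for the paralogs as a group.

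Rpl35 and Rpl7 were the core genes that rose. Rpl35 is uL29, at the rim of the tunnel through which the nascent chain leaves the large subunit. It was counted at 2457, 2484 and 2720 in the vehicle libraries and 2949, 2800 and 2784 in the 4-OHT libraries (log2 fold change 0.16, SE 0.051, adjusted p = 0.017 by limma), and the groups did not overlap. In the GENCODE annotation of GRCm38, 68.3% of its transcript lies opposite Arpc5l and Wdr38 on the other strand. Arpc5l, a subunit of the actin-nucleating complex, also passed as higher, by 0.15 on the log2 scale (SE 0.055, adjusted p = 0.034 by limma). The sources used here do not say whether strand was used in counting, so reads of Rpl35 and its antisense partners cannot be told apart. Rpl35 was not called without vehicle replicate 1 or 2, without 4-OHT replicate 1, or with total reads or quantile normalization.

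Rpl36 had the largest fall. This gene of the large-subunit protein eL36 was counted at 7825, 7702 and 8773 in the vehicle libraries and 6895, 7321 and 6729 in the 4-OHT libraries, and its mean went from 8100 ± 586 (SD, n = 3) to 6982 ± 306 (SD, n = 3), giving a log2 fold change of −0.21 (SE 0.051, adjusted p = 0.0021 by limma). Every 4-OHT library lay below every vehicle library. It was called in each of the 20 alternatives to the fit, as Rps27l was in the other direction, although 81.1% of the windows of its transcript occur in transcripts of 12 other genes. Rpl8, Rps2 and Rps6 were called lower with any single library left out.

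Rpl8 and Rpl3 encode uL2 and uL3, which reach towards the peptidyl transferase centre. Rpl8 was counted at 27072, 27398 and 29456 in the vehicle libraries and 24677, 25563 and 24582 in the 4-OHT libraries (log2 fold change −0.16, SE 0.044, adjusted p = 0.0052 by limma). Rpl3 was counted at 30314, 31272 and 33141 in the vehicle libraries and 29629, 29471 and 28226 in the 4-OHT libraries (log2 fold change −0.12, SE 0.045, adjusted p = 0.042 by limma). Both sets of libraries stood apart, Rpl3 by the smaller margin. The other genes listed for this centre and the wall of the exit tunnel, Rpl4, Rpl10 and Rpl17, passed in neither direction. Thus 2 of the 5 fell (40% called, against 43.6% of all genes). With total reads or quantile normalization, Rpl4 and Rpl17 were called lower as well.

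Rps2, which encodes uS5 at the mRNA entry channel, had the highest level of all members per kilobase of transcript. It was counted at 56286, 54835 and 59214 in the vehicle libraries and 50682, 51546 and 50162 in the 4-OHT libraries (log2 fold change −0.16, SE 0.045, adjusted p = 0.0068 by limma), with the groups apart. Rps3, which also lines the entry channel, was counted at 28865, 28831 and 30725 in the vehicle libraries and 28983, 31948 and 29153 in the 4-OHT libraries and the groups overlapped (log2 fold change 0.03, SE 0.047, adjusted p = 0.69 by limma; 95% interval −0.07 to 0.13). Under quantile normalization Rps3 was instead called lower, with a log2 fold change of −0.18 (limma adjusted p = 0.00056). Only 2.96% of the windows of Rps3 occur in transcripts of other genes, against 79.0% for Rps2. Of the 4 genes of mRNA entry and decoding, Rps2, Rps3, Rps23 and Fau, 1 fell (25% called, against 43.6% of all genes). Rps23 was called lower too with total reads or quantile normalization.

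Rps6 encodes eS6, the ribosomal protein phosphorylated by the S6 kinases downstream of mTORC1. It was counted at 17856, 18290 and 19199 in the vehicle libraries and 16578, 16859 and 16439 in the 4-OHT libraries (log2 fold change −0.15, SE 0.042, adjusted p = 0.0072 by limma). The 4-OHT libraries lay close together and below all vehicle libraries.

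**Figure D5:**
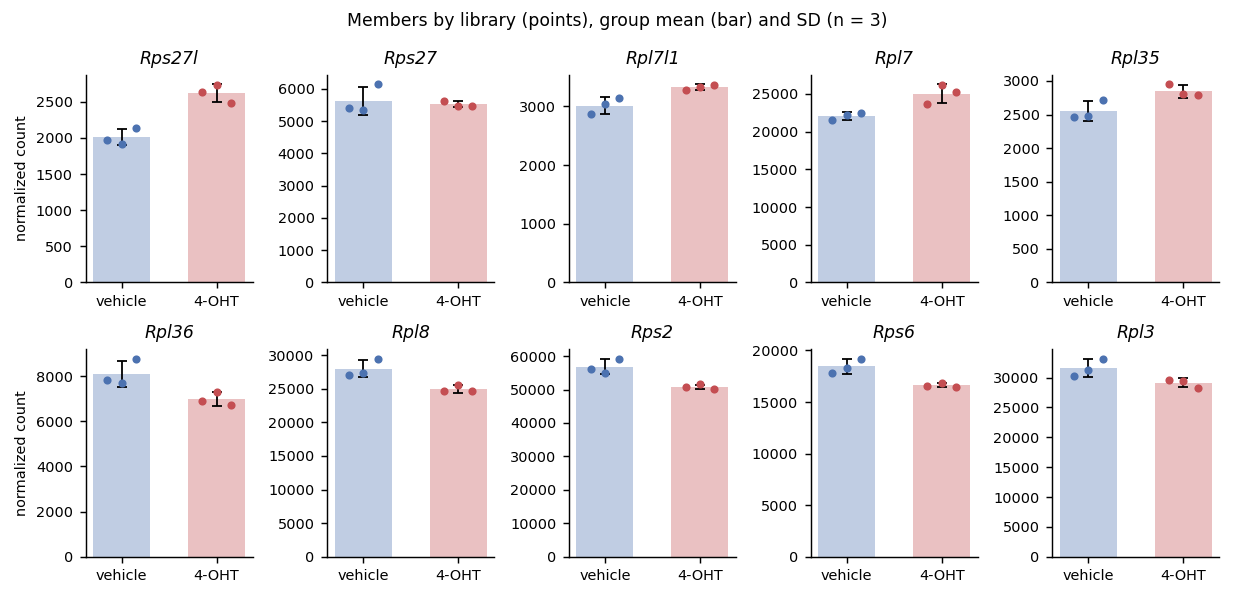
Normalized count (y axis, from 0) of 10 members in the vehicle (blue) and 4-OHT (red) libraries. Points are libraries, bars are group means and error bars are SD (n = 3). Rps27l, Rpl7l1, Rpl7 and Rpl35 are higher in all 4-OHT libraries, the 5 genes Rpl36, Rpl8, Rps2, Rps6 and Rpl3 are lower in all of them, and Rps27 overlaps.

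Further falls were close to the threshold. Rpl7a, Rpl22 and Rps13 had log2 fold changes of −0.12, −0.12 and −0.12, with limma adjusted p-values of 0.03, 0.039 and 0.048. Rpl22, eL22, which has roles in lymphocyte development outside the ribosome, was counted at 5590, 5739 and 6210 in the vehicle libraries and 5227, 5470 and 5398 in the 4-OHT libraries. In each of these 3 genes every 4-OHT library lay below every vehicle library. None of the 3 passed without vehicle replicate 3, and neither did Rpl3.

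Across the members, all 4-OHT libraries lay below all vehicle libraries in 16 genes and above them in 4. Among all genes tested, the groups stood apart in 52.1%, and the 4-OHT libraries lay below in 25.3%.

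Rpl5 and Rpl11 passed in neither direction in the deposited normalization, and Rpl5 was called lower under quantile normalization (log2 fold change of −0.12, limma adjusted p = 0.014). Rpl5, counted at 19036, 19776 and 20580 in the vehicle libraries and 19145, 20779 and 19117 in the 4-OHT libraries, had a log2 fold change of −0.0089 (SE 0.046, adjusted p = 0.89 by limma). Rpl11, counted at 13947, 13715 and 14978 in the vehicle libraries and 13964, 14692 and 14089 in the 4-OHT libraries, had a log2 fold change of 0.0043 (SE 0.045, adjusted p = 0.95 by limma). Their 95% intervals were −0.11 to 0.09 for Rpl5 and −0.09 to 0.10 for Rpl11, which carry the 5S rRNA into the large subunit together. On the other strand, 46.6% of the Rpl5 transcript lies opposite Fam69a.

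The P stalk, which recruits the elongation factors, also gave no call among its 4 genes in the deposited normalization. Under quantile normalization all 4 were called lower, Rplp0 at −0.22, Rplp1 at −0.15 and Rplp2 at −0.20 (limma adjusted p = 0.00019, 0.012 and 0.0012), and Rplp2 and Rpl12 were also called lower with total reads. Rplp0 was counted at 52489, 54256 and 57841 in the vehicle libraries and 53519, 55481 and 52086 in the 4-OHT libraries (log2 fold change −0.03, SE 0.048, adjusted p = 0.64 by limma). Rplp1 had a log2 fold change of −0.02 and Rplp2 of −0.09, the latter with every 4-OHT library below every vehicle library (limma adjusted p = 0.15). Per kilobase of transcript, Rplp1 at 47342 ± 3042 (SD, n = 3) and Rplp0 at 40399 ± 2008 (SD, n = 3) were among the most abundant members in vehicle, below Rps2 at 56892 ± 2235 (SD, n = 3) normalized counts per kilobase.

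Rps27a and Fau encode a ribosomal protein fused to ubiquitin or to a ubiquitin-like protein. Rps27a was counted at 8527, 8370 and 9262 in the vehicle libraries and 8554, 9199 and 8657 in the 4-OHT libraries (log2 fold change 0.01, SE 0.047, adjusted p = 0.83 by limma). Fau was counted at 10337, 10184 and 10429 in the vehicle libraries and 9649, 10618 and 9906 in the 4-OHT libraries (log2 fold change −0.04, SE 0.044, adjusted p = 0.52 by limma). The groups overlapped in both. Fau was called lower with total reads (−0.11, limma adjusted p = 0.036) and under quantile normalization (−0.13, limma adjusted p = 0.011).

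Rpsa, the small-subunit protein also known as the laminin receptor, had a log2 fold change of −0.0054 ± 0.048 (SE), and Rps19, the gene most often mutated in Diamond-Blackfan anaemia, one of 0.04 ± 0.047 (SE). Under quantile normalization Rpsa was called lower, at −0.22 (limma adjusted p = 0.00035). The X-linked genes Rpl10, Rpl39 and Rps4x had log2 fold changes of 0.02, 0.03 and 0.05, and none of the 4 X-linked core genes, Rpl36a included, passed. Their groups overlapped throughout.

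Per kilobase of transcript, 3 core genes were far below the rest, and their levels are uncertain. Rpl24 was counted at 0.933, 6.38 and 4.84 in the vehicle libraries and 10.3, 6.22 and 12.5 in the 4-OHT libraries and was not tested, Rps10 at 91.4, 106 and 99.3 in the vehicle libraries and 100, 103 and 84.2 in the 4-OHT libraries, and Rpl13a at 373, 345 and 378 in the vehicle libraries and 349, 352 and 322 in the 4-OHT libraries. In the GENCODE annotation of GRCm38 these are the only core genes with most of their transcript inside another gene on the same strand: 71.5% of Rpl24 lies in Gm28037, 53.6% of Rps10 lies where the annotation also has RPS10-NUDT3 and Gm15420, and 59.3% of Rpl13a in Gm45713 and Mir5121. Whether overlap set these counts was not tested. The pseudogene rows named after Rps10 held 121% of the reads of Rps10 itself, whereas all 218 -ps rows together took 0.0306% to 0.0333% of all reads in each library.

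Among the genes outside the 88, Rack1, a small-subunit protein and signalling scaffold, was counted at 27812, 28150 and 30234 in the vehicle libraries and 27751, 28790 and 27687 in the 4-OHT libraries (log2 fold change −0.03, SE 0.045, adjusted p = 0.59 by limma). Rpl36al, a relative of Rpl36a, was counted at 24.3, 19.9 and 19.4 in the vehicle libraries and 17.6, 15.5 and 10.2 in the 4-OHT libraries (log2 fold change −0.55, SE 0.35, adjusted p = 0.22 by limma). Neither was called.

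In the deposited normalization, translation factors and related genes, listed as TOP mRNAs, had a larger share of calls than the ribosomal protein genes, which was not tested. The share of this list with total reads or quantile normalization is not given. Of the listed genes, 20 matched the RefSeq table of starts, and 8 of the 20 (40%) held the run described above. Of 28 translation factors and related genes, Rack1 included, 2 rose and 7 fell (32.1% called, against 43.6% of all genes), with a median log2 fold change of −0.030. Tpt1, the translationally controlled tumour protein, was counted at 27381, 28199 and 28588 in the vehicle libraries and 33923, 37379 and 35655 in the 4-OHT libraries (log2 fold change 0.34, SE 0.045, adjusted p = 3.9e-06 by limma). Hnrnpa1, an RNA-binding splicing regulator, was counted at 14431, 14926 and 15084 in the vehicle libraries and 11793, 11616 and 11386 in the 4-OHT libraries (log2 fold change −0.35, SE 0.041, adjusted p = 8.4e-07 by limma).

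The groups stood apart in both genes, in opposite directions. Btf3, a subunit of the nascent chain complex, rose by 0.17 on the log2 scale, and the other genes that fell were Eif3c, Npm1, Nap1l1, Pabpc1, Eif3d and Eif3a, with log2 fold changes of −0.23, −0.21, −0.21, −0.20, −0.15 and −0.12. The elongation factor genes Eef1a1 and Eef2 passed in neither direction, at −0.08 and −0.08.

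Of 8 regulators of TOP mRNA translation, 1 rose and 4 fell (62.5% called, against 43.6% of all genes). Larp1, which binds the TOP tract, was counted at 6052, 5918 and 6434 in the vehicle libraries and 4969, 4742 and 5083 in the 4-OHT libraries (log2 fold change −0.31, SE 0.046, adjusted p = 1.4e-05 by limma). Eif4ebp1, the inhibitor of the cap-binding protein Eif4e, was counted at 4656, 4387 and 4566 in the vehicle libraries and 3040, 3873 and 3359 in the 4-OHT libraries (log2 fold change −0.41, SE 0.064, adjusted p = 2.6e-05 by limma). Every 4-OHT library lay below every vehicle library in both.

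Eif4ebp2 and Mtor, the kinase of mTORC1, fell by 0.19 and 0.18 on the log2 scale, and Rheb, the GTPase that activates mTORC1, rose by 0.16 (limma adjusted p = 0.013). Rptor, Rps6kb1 and Rps6kb2 passed in neither direction. Of 6 dedicated chaperones that escort single ribosomal proteins, 50% were called, against 43.6% of all genes. Aamp rose by 0.23, Pdcd2l and Bccip fell by 0.25 and 0.19, and Grwd1, Heatr3 and Tsr2 passed in neither direction.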

How the data were processed

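RNA from 3 vehicle and 3 4-OHT organoid libraries was sequenced. The authors deposited a table of normalized counts per gene (a signal, not raw reads). The submitters' processing notes name STAR, DESeq2 and GRCm39 (mm39), with no version or counting rule. Values in each library were whole multiples of 1 step, so that reads could be recovered for 100% of values within 0.1 reads. No library differed from another by less than sampling noise. Genes with a mean of at least 10 were tested with limma 3.58.1 (trend) in R 4.3.3 on log2(normalized count + 1), with Benjamini-Hochberg adjustment over all genes and a threshold of 0.05, so fold changes are on that scale. edgeR 4.0.16 and DESeq2 1.42.0 were run on the recovered reads as alternatives, and the scripts were tested on simulated data. Paralog to core ratios were compared by two-sided exact permutation tests. Transcript lengths and overlaps came from the GENCODE annotation of GRCm38, and start sequences from RefSeq. The long principal transcripts of Rps15a and Rps20 make their per-kilobase levels uncertain.

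The genes named were every paralog, the core members past the threshold that moved most (8 at most in each direction), and core members picked for their role. Rpl27, Rpl37a and Rpl38, genes with low counts or overlaps and those whose sequences are shown were chosen after values were seen. The members and lists were chosen with earlier results of these data known. Each count was repeated under 20 other settings of the fit over all genes, given in the closing section. Depth sets the counting error only. Values of some genes are not reported here.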

Additional observations from a re-analysis of the deposited data

How the results depend on the processing

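Main counts were 4 members higher and 9 lower, with a median of −0.027 and 5765 genes called in all. They were 4 and 9 with other pseudocounts (0.1 and 10), a mean of at least 50, TMM factors, size factors computed without the members, or -ps rows added to their member, and 4 and 10 with edgeR or DESeq2 on the recovered reads, which called 5780 and 5208 genes in all. With no filter on low values, 4 members were lower. Under the replicate block, 4 were higher and 4 lower (Rpl36, Rpl8, Rps2 and Rps6). Same-numbered libraries did not deviate together (correlations −0.0074, 0.030 and −0.020). These values gave no sign of pairing by number, but they include counting noise and cannot exclude it. Scaling to total reads gave 2 higher and 33 lower with a median of −0.10, and quantile normalization 1 higher and 45 lower with a median of −0.12. Of the members, 41.2% and 54.1% were then called in place of 15.3%, against 45.5% and 43.1% of all genes. With 4-OHT libraries 2 and 3 left out together, 2 were higher and 1 lower, and 3569 genes were called in all, the lone 4-OHT library being assumed to vary like the vehicle ones. Scaling each library to its core members, an alternative chosen after seeing the data, gave 5 higher and 3 lower. Except where fewer samples or more genes were tested, the cause was not tested.

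Leaving out single libraries gave 2 to 7 members higher (2 without vehicle replicate 1 or 2, 7 without vehicle replicate 3) and 4 to 11 lower (4 without vehicle replicate 3 or 4-OHT replicate 3). The members called then came to 8.2% to 17.6%, against 37.4% to 42.6% of all genes. The median of the members ran from −0.043 to 0.018, and was above 0 only without vehicle replicate 3. The exact permutation values cannot pass the threshold in this design. Differences of log2 ratio between paralog and core gene ran from −0.027 to 0.18 for Rps4l with Rps4x, −0.028 to 0.061 for Rpl22l1 with Rpl22, 0.37 to 0.44 for Rps27l with Rps27 and −0.065 to −0.0074 for Rpl7l1 with Rpl7. With single libraries left out, log2 fold changes that turned their sign ran from −0.12 to 0.45 for Rpl32l, −0.021 to 0.043 for Rpl11, −0.018 to 0.059 for Rps27a, −0.049 to 0.019 for Rpl5, −0.062 to 0.0084 for Rplp0, −0.052 to 0.032 for Rplp1, −0.063 to 0.035 for Rps27, −0.037 to 0.039 for Rpsa, −0.018 to 0.18 for Rps3a2, −0.0030 to 0.074 for Rps19 and −0.019 to 0.056 for Rps3. Log2 fold changes that turned their sign were all of genes without a call in the values reported: with scaling to total reads Rpl11 (−0.069), Rpl10 (−0.048), Rpl39 (−0.041), Rps27a (−0.059), Rps19 (−0.035), Rps4x (−0.020) and Rps3 (−0.047), with quantile normalization Rpl11 (−0.094), Rpl10 (−0.078), Rpl39 (−0.037), Rps27a (−0.091), Rps19 (−0.073), Rps4x (−0.079) and Rps3 (−0.18), with edgeR Rpl11 (−0.00062), with leaving out 4-OHT libraries 2 and 3 Rps3a2 (−0.074), Rps4l (−0.051), Rpl11 (−0.024), Rpl10 (−0.0088), Rpl39 (−0.0099), Rplp1 (0.024), Rps27a (−0.026) and Rps3 (−0.024), and with scaling to the core members Rpl5 (0.019), Rplp1 (0.0081), Rps27 (0.00025) and Rpsa (0.023). Of the 3 low core genes and the low paralogs, depth limits Rpl24, Rpl3l and Rpl39l most, since they held too few reads to be tested.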
